A study of Mus musculus with 8 samples.

Results

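The genes described here are the 3 TET dioxygenases, Tet1, Tet2 and Tet3, and the DNA glycosylases Tdg and Mbd4, 5 of the 21182 gene symbols in the expression table. They were chosen by name, and all 5 had a row. RNA from whole C57BL/6 mouse embryos, 1 embryo per library, was sequenced at stage E6.75, around the onset of gastrulation. There were 4 embryos labelled as triple knockouts (TKO) of Tet1, Tet2 and Tet3, and 4 Control embryos, whose columns are headed as wild type for the 3 genes. The deleted exons, any Cre driver, the litters and the parental genotypes are not stated by the labels, so p-values measure the spread between these single embryos.

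TET enzymes are iron- and 2-oxoglutarate-dependent dioxygenases that oxidise methylcytosine in DNA stepwise to hydroxymethyl-, formyl- and carboxylcytosine. Thymine DNA glycosylase, the product of Tdg, cuts out formyl- and carboxylcytosine opposite guanine, and base-excision repair then inserts an unmodified cytosine. Mbd4 encodes a methyl-CpG-binding glycosylase that removes thymine or uracil from mismatches at CpG sites. Tet1 is known as a TET enzyme of pluripotent cells and germ cells, Tet2 of blood and embryonic stem cells, and Tet3 of the oocyte, zygote and neural tissue.

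The 3 TET genes are related but distinct in sequence, which decides whether reads can be assigned to one of them. The stretches below encode the part of the dioxygenase domain that holds the histidine-x-aspartate triplet, whose histidine and aspartate bind the catalytic iron. They are shown because a deletion that inactivates a TET enzyme can leave most of its transcript in place. They come from the coding sequences of GENCODE transcripts on GRCm38 (Tet1 on chromosome 10, Tet2 on 3 and Tet3 on 6, all on the minus strand), written 5′ to 3′, and the capitals mark the codons of the triplet.
Tet1: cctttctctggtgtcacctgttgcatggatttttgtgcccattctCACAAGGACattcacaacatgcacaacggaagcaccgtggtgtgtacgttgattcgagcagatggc
Tet2: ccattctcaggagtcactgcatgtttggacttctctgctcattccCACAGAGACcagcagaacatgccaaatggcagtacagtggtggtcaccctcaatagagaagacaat
Tet3: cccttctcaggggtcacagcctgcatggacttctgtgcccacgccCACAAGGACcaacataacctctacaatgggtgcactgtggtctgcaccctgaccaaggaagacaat
Over these 111 bases Tet1 and Tet2 were 64.9% identical, Tet1 and Tet3 66.7% and Tet2 and Tet3 72.1%. The longest run shared at the same position by any pair was 9 bases. Over the longest coding transcript of each gene, no window of 50 bases was shared between members.

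The Tdg transcript is different, because the mouse genome carries near-identical processed copies of it. The stretch below spans the active site, with the codon of the catalytic asparagine in capitals (chromosome 10, plus strand, GRCm38, 5′ to 3′).
Tdg: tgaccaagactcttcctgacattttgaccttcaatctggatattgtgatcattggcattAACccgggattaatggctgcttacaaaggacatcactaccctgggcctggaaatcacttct
All 120 bases were found unchanged in 3 annotated processed pseudogenes, Tdg-ps on chromosome 15, Gm9855 on chromosome 10 and Gm5597 on chromosome 7. Tdg-ps aligned to 2968 bases of the Tdg transcript with 39 mismatches (98.7% identity). Of the 50-base windows of the longest coding Tdg transcript, 66.3% occurred in another annotated gene, and of the 100-base windows 46.0% did. The pseudogenes made up most of these, and Glt8d2, a gene that overlaps the end of Tdg on the other strand, 9.21% of the 50-base windows. For Mbd4 the share was 7.52% at 50 bases and 2.76% at 100 bases. For Tet1 it was 0.0140% and 0, and for Tet2 and Tet3 it was 0 at both lengths.

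**Figure D1:**
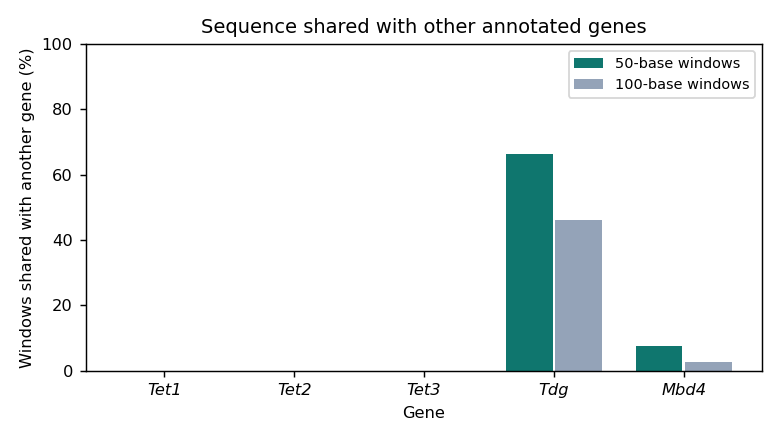
Share of windows (percent) of the longest coding transcript of each gene that also occur, on either strand, in another annotated gene, for windows of 50 and 100 bases. Tdg reaches 66.3% and 46.0%, Mbd4 7.52% and 2.76%, and the TET genes lie at or near 0.

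Values are RPKM, read numbers scaled by gene length and by library size. Levels of different genes can be set side by side as far as those lengths hold. The lengths used are not given and the deleted exons are not stated. Whether the lengths hold for the TET genes in TKO-labelled embryos was not tested. Estimated depth, in units of 1000000 reads (M), was 9.90 to 18.96 M reads in TKO-labelled embryos and 12.38 to 16.42 M reads in Control embryos. Markers of the epiblast, extraembryonic ectoderm, visceral endoderm and parietal endoderm were all above 0 in each embryo. That is a weak check of the label of whole embryo, since a value above 0 does not measure how much of a tissue was present. The summed level of 5 markers of maternal decidua ranged from 13.2 to 370 RPKM in TKO-labelled and from 2.59 to 376 RPKM in Control embryos, so embryos of both groups carried very different amounts of these transcripts. Summed parietal endoderm markers stood at 258 to 860 RPKM in TKO-labelled and 146 to 290 RPKM in Control embryos. Because embryos were sequenced whole, more cells of a type and more transcript per cell cannot be told apart.

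Tet1 transcript was present at higher levels in all 4 embryos labelled as its knockout than in any Control embryo, though the difference missed the threshold of the fit across genes. It stood at 15.3, 9.50, 9.21 and 11.7 RPKM in TKO-labelled embryos 1 to 4, against 5.04, 5.25, 4.93 and 5.76 RPKM in Control embryos 1 to 4. Every TKO-labelled embryo lay above every Control embryo, and the TKO-labelled embryos were spread more widely. The mean was 11.4 ± 2.82 RPKM in TKO-labelled and 5.24 ± 0.37 RPKM in Control embryos (SD, n = 4 each), a ratio of 2.18. In the fit across 10451 genes the log2 difference on the log2(RPKM + 1) scale was 0.97 with an SE of 0.15, and limma's p with Benjamini-Hochberg adjustment was 0.103, which misses the threshold of 0.05. The exact two-sided permutation p was 0.0286, the smallest that 4 against 4 embryos allow.

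Across all tested genes 0.00957% passed limma's threshold, a single gene higher in TKO-labelled embryos (AI428936, no member of this family), and 0% were lower at that threshold. At an unadjusted limma p under 0.05 the shares were 13.9% higher and 3.6% lower. Groups without overlap were found in 7.55% of tested genes in the higher direction, as for Tet1, and in 1.86% in the lower direction. Without TKO-labelled embryo 1, which had the most Tet1, the log2 difference was 0.83 and limma's adjusted p 0.0306. The unadjusted limma p of Tet1 changed little, from 6.9e-05 with all embryos to 6.1e-05, while 40 of 10451 tested genes passed the threshold in that setting. The alternatives gave adjusted p-values between 0.0306 and 0.320. A value for the whole gene counts reads from any exon that is present, so this measurement cannot check the knockout label, and the embryos are called TKO-labelled here.

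**Figure D2:**
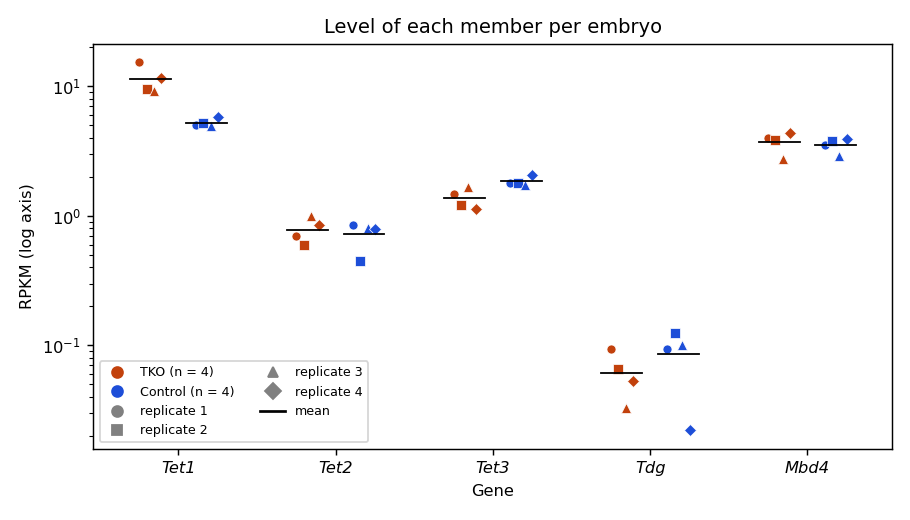
RPKM (log axis) of the 5 genes in each TKO and Control embryo, with 1 marker shape per replicate number and the group mean as a black line. Tet1 shows TKO points above all Control points, Tet3 the opposite with a smaller gap, and Tet2, Tdg and Mbd4 overlap.

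Among the TKO-labelled embryos epiblast markers ran with Tet1, and parietal endoderm markers and estimated depth ran against it. In these few embryos the parts of the epiblast level, parietal endoderm level and depth cannot be told apart. The mean log2(RPKM + 1) of 9 epiblast markers was 6.41, 5.90, 5.57 and 5.97 in TKO-labelled embryos 1 to 4, so that Tet1 and the markers had the same order there. It was 5.16, 5.78, 5.46 and 5.76 in Control embryos 1 to 4, where the order was not that of Tet1, and the groups overlapped. Tet1 differed by 0.73 on the log2 scale with the epiblast marker level as a covariate (limma adjusted p = 0.109), so the value is smaller there. The mean level of 11 parietal endoderm markers was 3.34, 4.95, 5.40 and 4.71 in TKO-labelled embryos 1 to 4, the reverse of the order of Tet1. It was 3.30, 2.73, 2.97 and 3.79 in Control embryos 1 to 4, with no such order. With this level as a covariate the Tet1 difference was 1.31 (limma adjusted p = 0.112). Of the 9 epiblast markers 8 had positive differences, beside a median log2 difference of 0.09 over all tested genes as deposited. In 1 of the 9 the groups did not overlap, against 9.41% of all tested genes, and 0 passed limma's threshold, against 0.00957%. The markers' summed level was 604 to 1183 RPKM in TKO-labelled and 554 to 803 RPKM in Control embryos, with no marker at 0.

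Estimated depth in TKO-labelled embryos 1 to 4 was 9.90, 14.16, 18.96 and 11.72 M reads, the reverse of the order of Tet1. In Control embryos 1 to 4 it was 16.42, 14.93, 12.38 and 14.27 M reads, with no such order. At the length of the longest coding transcript, Tet1 rested on an estimated 1934 to 2508 reads in TKO-labelled and 877 to 1188 reads in Control embryos. The counting error of such numbers is 2.00% to 3.38%, under the spread between embryos (24.7% of the mean in TKO-labelled and 7.06% in Control embryos). The part of depth in the Tet1 difference was not tested.

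**Figure D3:**
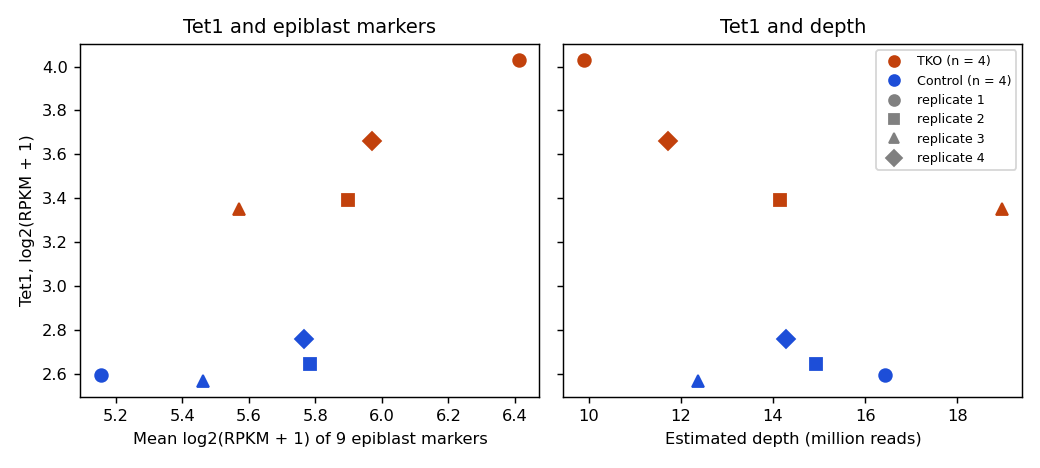
Tet1 level, log2(RPKM + 1), against the mean level of 9 epiblast markers (left) and the estimated depth (right, in units of 1000000 reads), 1 point per embryo. All TKO points lie above all Control points in Tet1, and within the TKO embryos Tet1 runs with the markers and against depth.

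Tet3 had the opposite direction. It stood at 1.48, 1.22, 1.68 and 1.14 RPKM in TKO-labelled embryos 1 to 4, against 1.80, 1.79, 1.73 and 2.08 RPKM in Control embryos 1 to 4. The groups did not overlap, with TKO-labelled embryo 3 the closest to the Control embryos. The mean was 1.38 ± 0.25 RPKM in TKO-labelled and 1.85 ± 0.16 RPKM in Control embryos (SD, n = 4 each). The log2 difference was -0.26 (95% confidence interval -0.54 to 0.01), with 0.297 as limma's adjusted p and 0.0286 from the exact permutation test. Tet3 kept a negative difference in all 22 alternative settings, between -0.41 and -0.22, with adjusted p-values of 0.245 to 0.572. An estimated 146 to 346 reads in TKO-labelled and 234 to 323 reads in Control embryos stood behind it, for a transcript of 10904 bases, with a counting error of 5.37% to 8.29%.

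Tet2 was low and did not separate the groups. It stood at 0.702, 0.598, 0.993 and 0.843 RPKM in TKO-labelled embryos 1 to 4, and at 0.850, 0.444, 0.811 and 0.795 RPKM in Control embryos 1 to 4. The ranges overlapped, with Control embryo 2 the lowest of the 8. Maternal decidua markers (mean log2(RPKM + 1) of 5 genes) had the same order as Tet2 in TKO-labelled embryos 1 to 4. They stood at 1.63, 1.07, 3.33 and 2.38 there. In Control embryos 1 to 4 they stood at 2.89, 0.552, 4.05 and 3.28, lowest in embryo 2 but otherwise in another order. The part of maternal tissue in the Tet2 level was not tested. Tet2 means were 0.784 ± 0.172 RPKM in TKO-labelled and 0.725 ± 0.189 RPKM in Control embryos (SD, n = 4 each). The log2 difference was 0.05, with an exact permutation p of 0.657. The gene lay below the filter on low values and so was not in the main fit. It rested on an estimated 61 to 173 reads per embryo, a counting error of 7.61% to 12.8%. With upper-quartile scaling its log2 difference was -0.01, so the sign depends on the scaling.

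Mbd4 was the glycosylase with a well-measured level, and its groups overlapped. It stood at 4.02, 3.85, 2.75 and 4.39 RPKM in TKO-labelled embryos 1 to 4, and at 3.51, 3.79, 2.90 and 3.96 RPKM in Control embryos 1 to 4. Replicate 3 was the lowest of each group, a shared number that the labels do not tie to a shared litter or batch. The mean was 3.75 ± 0.71 RPKM in TKO-labelled and 3.54 ± 0.46 RPKM in Control embryos (SD, n = 4 each). The log2 difference was 0.06 (95% confidence interval -0.26 to 0.38) and limma's adjusted p 0.859. Under median-ratio scaling it was -0.02 and under upper-quartile scaling -0.06. The sign thus depends on the scaling, and the upper end of the interval lies below the 0.97 estimated for Tet1. Mbd4 and Tdg carried no deletion by the labels.

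Tdg was listed at levels near the limit of the data. It stood at 0.094, 0.066, 0.033 and 0.053 RPKM in TKO-labelled embryos 1 to 4, and at 0.094, 0.125, 0.1 and 0.022 RPKM in Control embryos 1 to 4. These values are few reads. With the estimated depths and a gene length of 3226 bases, which lies between the 2 longest coding transcripts, they came out at 3, 3, 2 and 2 reads in TKO-labelled and 5, 6, 4 and 1 reads in Control embryos, each within 0.021 of a whole read. The length was chosen so that the values came out whole. The sums, 10 reads in TKO-labelled and 16 reads in Control embryos, came from an estimated 54.74 M reads in TKO-labelled and 58.00 M reads in Control embryos. The groups overlapped, and the exact permutation p was 0.429. The copies Tdg-ps, Gm9855 and Gm5597 have no row in the table, and how reads with several matches were counted is not stated. The Tdg value is therefore uncertain as a level of the gene, and the part of the copies in it was not tested.

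The order of the levels was the same in all embryos, with Tet1 highest, followed by Mbd4, Tet3, Tet2 and Tdg. The ratio of Tet1 to Mbd4 was 3.07 ± 0.62 in TKO-labelled and 1.49 ± 0.14 in Control embryos, and that of Mbd4 to Tet3 2.84 ± 0.93 in TKO-labelled and 1.91 ± 0.18 in Control embryos (SD, n = 4 each). Tet3 exceeded Tet2 1.80 ± 0.35 times in TKO-labelled and 2.72 ± 0.90 times in Control embryos. Within each group the ranges of neighbours in this order did not overlap. Among all 21182 symbols Tet1 stood at percentiles 76.6 to 82.7 in TKO-labelled and 69.5 to 71.1 in Control embryos. Mbd4 stood at percentiles 61.1 to 67.0 in TKO-labelled and 62.7 to 67.0 in Control embryos. Tet3 stood at 52.2 to 55.5 in TKO-labelled and 56.5 to 58.1 in Control embryos, and Tet2 at 47.2 to 50.5 in TKO-labelled and 45.7 to 50.1 in Control embryos. Tdg stood at 20.3 to 31.8 in TKO-labelled and 18.7 to 35.4 in Control embryos.

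The make-up of the TET family is described per embryo, without a test. Tet1 made up 87.6%, 83.9%, 77.5% and 85.5% of the summed TET RPKM in TKO-labelled embryos 1 to 4, against 65.5%, 70.2%, 65.96% and 66.7% in Control embryos 1 to 4. The share of Tet3 was 10.4% ± 2.71 in TKO-labelled and 23.6% ± 0.41 in Control embryos, and that of Tet2 5.96% ± 1.83 in TKO-labelled and 9.26% ± 2.37 in Control embryos (SD, n = 4 each). The shares of Tet1 and Tet3 did not overlap between the groups, while that of Tet2 did.

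The ratio of Tet1 to Tet3 is free of the scaling between embryos, since both values share a read total. Like the shares, it still depends on the gene lengths used, and the part of any missing exons in it was not tested. It was 10.4, 7.79, 5.49 and 10.2 in TKO-labelled embryos 1 to 4, against 2.80, 2.94, 2.84 and 2.77 in Control embryos 1 to 4. The Control embryos lay close together and the TKO-labelled embryos were spread widely. Each TKO-labelled ratio was above each Control ratio. These shares and ratios follow from the member levels above and carry no test of their own. The summed TET level was 13.6 ± 2.80 RPKM in TKO-labelled and 7.82 ± 0.55 RPKM in Control embryos (SD, n = 4 each).

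**Figure D4:**
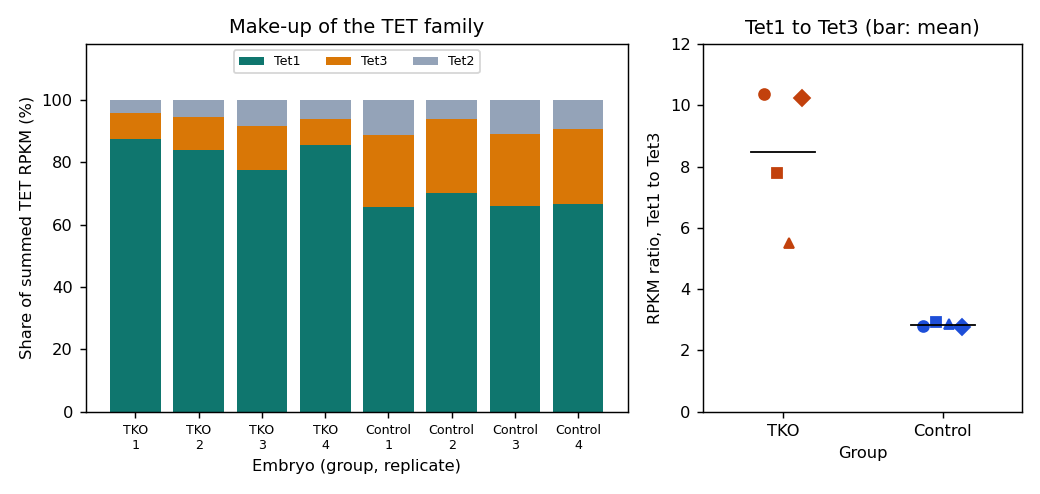
Left, share (percent) of Tet1, Tet3 and Tet2 in their summed RPKM per embryo. Right, RPKM ratio of Tet1 to Tet3 per embryo with the group mean as a line. Tet1 takes 77.5% to 87.6% in TKO and 65.5% to 70.2% in Control embryos, and the ratio is 5.49 to 10.4 in TKO and 2.77 to 2.94 in Control embryos.

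Genes that work with the members were taken from 7 lists with 77 genes, of which 72 passed the filter on low values. Limma's threshold was passed by 0 of them, against 0.00957% of all tested genes. At an unadjusted p under 0.05 18 lay higher and 2 lower in TKO-labelled embryos, beside 13.9% higher and 3.6% lower among all tested genes. Groups without overlap were found in 15.3% of the 72, 10 higher and 1 lower, against 9.41% of all tested genes. Their median log2 difference was 0.15, beside 0.09 for all tested genes. Of the 72 differences 52 were positive and 20 negative as deposited, 41 and 31 after median-ratio scaling, and 37 and 35 after upper-quartile scaling; groups without overlap then numbered 3 higher and 4 lower under either. Upper-quartile scaling put the median of all tested genes at -0.03. Over all tested genes an unadjusted p under 0.05 was reached by 1448 higher and 376 lower genes as deposited, 784 and 729 after median-ratio scaling, and 554 and 995 after upper-quartile scaling. The balance toward higher values thus depends on the scaling, in these lists and over all genes.

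Among the other base-excision glycosylases 8 of 9 were tested, 5 with positive and 3 with negative differences (median 0.10). Ung, which removes uracil from DNA, averaged 16.4 ± 1.72 RPKM in TKO-labelled and 24.4 ± 3.08 RPKM in Control embryos, without overlap (log2 difference -0.54, SE 0.12, limma adjusted p = 0.140). Ogg1, the glycosylase of oxidised guanine, averaged 2.17 ± 0.63 RPKM in TKO-labelled and 0.921 ± 0.351 RPKM in Control embryos, also without overlap (0.72, SE 0.18, limma adjusted p = 0.156). Both kept their direction and their gap between groups under either scaling. Ogg1 had the largest difference of the 72 in the higher direction.

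The steps after the glycosylase, from cutting the abasic site to ligation, had 16 of 16 genes tested, 11 positive and 5 negative (median 0.15). Lig3, the ligase that works with Xrcc1, averaged 9.45 ± 1.41 RPKM in TKO-labelled and 6.87 ± 0.54 RPKM in Control embryos (log2 difference 0.40, limma adjusted p = 0.182). Polb, the gap-filling polymerase, averaged 35.5 ± 2.25 RPKM in TKO-labelled and 28.3 ± 2.42 RPKM in Control embryos (0.32, limma adjusted p = 0.186). The groups of both genes overlapped once the embryos were rescaled by either method.

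TET partners and regulators had 12 of 14 genes tested, 10 positive and 2 negative (median 0.15). The RNA-binding pluripotency factor gene Lin28a averaged 33.6 ± 11.8 RPKM in TKO-labelled and 23.5 ± 1.67 RPKM in Control embryos (log2 difference 0.44, limma adjusted p = 0.299), with overlap. Zfp281, a zinc finger factor of pluripotent cells, averaged 22.2 ± 0.96 RPKM in TKO-labelled and 19.6 ± 1.11 RPKM in Control embryos (0.17, limma adjusted p = 0.373). The Zfp281 groups did not overlap as deposited. They overlapped after median-ratio scaling (log2 difference 0.07) and upper-quartile scaling (0.03). Cxxc4, a CXXC-domain gene next to Tet2, was below the filter, at no more than 0.557 RPKM in TKO-labelled and 0.253 RPKM in Control embryos.

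The list of genes that supply or use 2-oxoglutarate, the co-substrate of TET enzymes, or act on its antagonists had 17 of 17 tested. Of these 14 were positive and 3 negative (median 0.18). Glud1, which makes 2-oxoglutarate from glutamate, averaged 78.0 ± 3.86 RPKM in TKO-labelled and 59.5 ± 4.43 RPKM in Control embryos (log2 difference 0.39, limma adjusted p = 0.156). Idh3b, a subunit of the mitochondrial isocitrate dehydrogenase, averaged 64.4 ± 9.44 RPKM in TKO-labelled and 46.0 ± 4.57 RPKM in Control embryos (0.47, limma adjusted p = 0.160). Neither gene overlapped between the groups, with or without rescaling.

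Of the cytosine deaminases and GADD45 genes 5 of 7 were tested, 4 positive and 1 negative (median 0.14). Apobec1, an RNA-editing member of the deaminase family, stayed below the filter, at no more than 0.075 RPKM in TKO-labelled and 0.247 RPKM in Control embryos. Apobec2, of the same family, averaged 2.51 ± 0.53 RPKM in TKO-labelled and 1.44 ± 0.41 RPKM in Control embryos (log2 difference 0.53, limma adjusted p = 0.176). Its groups did not overlap as deposited but overlapped after either scaling. Gadd45b, a stress-induced gene linked to DNA demethylation, averaged 7.87 ± 2.63 RPKM in TKO-labelled and 12.4 ± 2.68 RPKM in Control embryos (-0.64, limma adjusted p = 0.225). Its groups overlapped as deposited and did not overlap after either scaling.

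The readers of oxidised methylcytosine had 4 of 4 genes tested, 2 positive and 2 negative (median 0.13). Listed in the table as 8430410A17Rik, Hmces, which shields abasic sites in single-stranded DNA, averaged 30.5 ± 1.24 RPKM in TKO-labelled and 24.3 ± 6.54 RPKM in Control embryos (log2 difference 0.35, limma adjusted p = 0.293). Thyn1 averaged 56.6 ± 7.25 RPKM in TKO-labelled and 46.1 ± 10.2 RPKM in Control embryos (0.31, limma adjusted p = 0.328). Both overlapped between the groups.

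Partners of the TDG and MBD4 proteins had 10 of 10 genes tested, 6 positive and 4 negative as deposited (median 0.07). After either scaling 3 were positive and 7 negative, with medians of -0.030 (median-ratio) and -0.075 (upper-quartile). Pms2, which encodes a mismatch repair protein, averaged 5.89 ± 0.68 RPKM in TKO-labelled and 5.16 ± 0.14 RPKM in Control embryos, with overlap (log2 difference 0.16, limma adjusted p = 0.482).

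**Figure D5:**
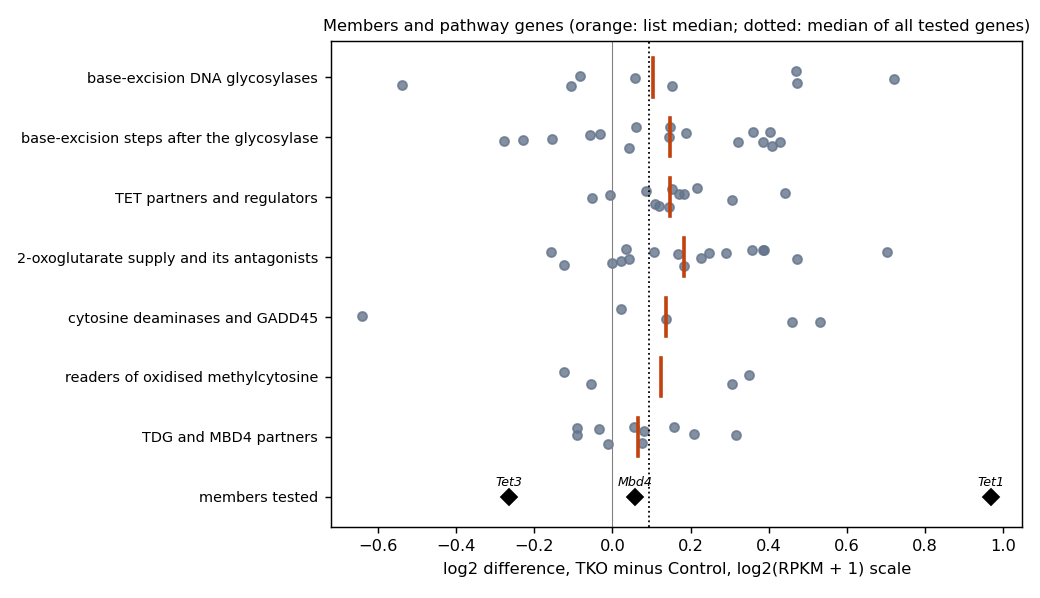
Log2 difference, TKO minus Control, on the log2(RPKM + 1) scale, for each tested gene of the 7 lists (grey points), the list medians (orange) and the 3 tested members (black diamonds); the dotted line is the median of all tested genes. Tet1, at 0.97, lies to the right of every list gene, which reach 0.72, and Tet3, at -0.26, among the lower ones.

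Some genes had a pattern over the 8 embryos close to that of a member, measured as the root-mean-square distance between centred log2(RPKM + 1) profiles among 6099 genes with a mean of at least 5 RPKM. Nearest to Tet1 were Vps72 at 0.162, which encodes a histone-exchange complex subunit, Crabp2 at 0.173, a carrier of retinoic acid, and Cap1 at 0.174, a regulator of actin, against a median distance of 0.504. Vps72 averaged 13.9 ± 5.53 RPKM in TKO-labelled and 6.24 ± 0.58 RPKM in Control embryos, and Crabp2 37.6 ± 6.14 RPKM in TKO-labelled and 17.3 ± 2.09 RPKM in Control embryos (SD, n = 4 each). Both were picked by likeness to Tet1 in the same embryos, so a group difference like that of Tet1 follows from the choice. Nearest to Tet3 were the histone variant gene H2afy, Incenp of the chromosomal passenger complex and the catenin inhibitor gene Ctnnbip1, at 0.0662, 0.0669 and 0.0691 against a median of 0.291. Nearest to Mbd4 were the translation factor gene Eif4g3 at 0.0451, the RNA acetyltransferase gene Nat10 at 0.0573 and the DNA polymerase subunit gene Pold3 at 0.0706, against a median of 0.240.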

How the data were processed

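The deposited table holds RPKM values per gene symbol and embryo, computed by the authors, with the unit taken from the table's name and its non-integer values. Per the labels' protocols, single embryos were lysed and cDNA was made with a SMARTer ultra-low input kit, then tagmented with Nextera XT. HTSeq (no version) and mm9 come from the submitters' processing notes. For the aligner, annotation, gene lengths, read total, strand use and multiply mapped reads, the entry is: not given in the sources used here. Without strand, a read from a stretch where a gene overlaps its antisense partner cannot be assigned to either. How such reads were counted is not stated. The reference used here is GRCm38, so no coordinates are printed.

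Differences, TKO minus Control, were fitted on log2(RPKM + 1) by limma (version 3.58.1, under R 4.3.3), eBayes with trend. Genes had to reach 1 RPKM in 4 or more of the 8 embryos, with two-sided p-values adjusted by Benjamini-Hochberg and held against 0.05. This scale understates changes of low genes. Single genes were also compared by exact two-sided permutation over 70 assignments. P-values measure the spread between these embryos.

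Depth was set, per embryo, at the total that gave the highest share of low values (0.03 to 1 RPKM, genes with 1 transcript) within 2% of 1, 2 or 3 reads. That share was 31.0% to 38.3%, against 15.4% to 19.3% at the best total more than 10% away and a median of 1.19% to 1.59% over all totals tried. These fitted totals are estimates, covering counting error only, and no count test was run. Shared windows were searched in GENCODE M21 transcripts, with lengths from the longest coding transcript of each gene.

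The members and lists were chosen with earlier results of these data known. Named are the members, from each list any called gene, otherwise the 2 of lowest p, and the 3 genes nearest each tested member, leaving out predicted genes; 1 gene so named is not reported here.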

Additional observations from a re-analysis of the deposited data

Results flagged for a closer look

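Tet2 in Control embryo 2, at 0.444 RPKM, lay apart from the other Control embryos, at 0.795 to 0.850 RPKM, by more of the group's range (0.865) than the 95% critical value of 0.829 for 4 samples. That embryo's estimated Tet2 reads, the fewest of the 8, were computed from its RPKM and so give no separate evidence. Its estimated depth was 14.93 M reads. The ratio of Tet2 to Tdg in Control embryo 4, at 36.1, lay apart from the other Control embryos, at 3.55 to 9.04, where Tdg rested on a single estimated read. These were 2 of 58 groups of 4 examined, and chance alone flags about 1 group in 20.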

How the results depend on the processing

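Tet1 kept its direction in all 22 alternatives (log2 difference 0.73 to 1.31) and passed the threshold only without TKO-labelled embryo 1, at 0.83; leaving out each embryo gave 0.83 to 1.05. Tet3 stayed negative and short of the threshold in all 22. Tdg stayed negative and short of it in 14, with exact p-values or adjusted p-values of 0.0857 to 0.714. Mbd4 reversed to -0.020 with median-ratio scaling, -0.057 with upper-quartile scaling, -0.015 with limma arrayWeights and -0.10 with the epiblast covariate, and leaving out each embryo gave -0.012 to 0.17. Tet2 reversed to -0.013 with upper-quartile scaling, and leaving out each embryo gave -0.033 to 0.10. Both are near 0, and the causes were not tested. The variance, weight, mean-filter and covariate alternatives were not run for Tet2 and Tdg, which the main fit does not hold.

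The count of 1 gene past the threshold became 0 with the unfiltered table, with the replicate block and with the epiblast or visceral endoderm covariate, 2 with robust eBayes, limma arrayWeights or the parietal endoderm covariate, and 3 with the extraembryonic ectoderm covariate. Leaving out each embryo gave 0 to 40. The count of 40 came without TKO-labelled embryo 1; 2 came without TKO-labelled embryo 3, and 0 without each Control embryo and without TKO-labelled embryo 4.

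The replicate numbers were not shown to pair embryos: same-numbered deviations correlated at -0.02 to 0.40, and 2 of 4 TKO-labelled embryos correlated best with their own number. With the block Tet1 was at 0.97 (limma adjusted p = 0.101), and no call among the members changed.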

Other observations

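The ratio of Tet1 to Tet3 varied less among Control embryos, at 2.84 ± 0.07 (SD, n = 4), than the estimated counting error of Tet3 alone, 5.56% to 6.54% in those embryos. That error rests on fitted depths and an assumed transcript length, and an SD from 4 embryos is itself imprecise. The ratio was among several measures examined, and the reason for its small spread was not tested. Among TKO-labelled embryos the ratio was 8.47 ± 2.31 (SD, n = 4).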
